A study of Mus musculus with 18 samples.

Results

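Trimethylation of histone H3 at lysine 27 (H3K27me3) is the mark that Polycomb repressive complex 2 lays down on genes kept silent, and it can spread over long stretches of chromatin. Trimethylation at lysine 4 (H3K4me3) and acetylation at lysine 9 (H3K9ac) mark active promoters and regulatory elements, and promoters that carry H3K27me3 and H3K4me3 together are known as bivalent. Notch1 is a receptor whose cleaved intracellular part, Notch1-IC, enters the nucleus and turns on genes with its DNA-binding partner RBPJ. In T cell acute lymphoblastic leukaemia (T-ALL) this pathway is often overactive.

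The regions described here are the broad autosomal intervals of a deposited list that compares H3K27me3 in T-ALL with normal thymocytes. They were chosen by 2 values of that list, a width of 2000 bp or more and a place outside dense chains, a chain being a run of H3K27me3 regions with gaps of 5 kb or less and a dense one holding 10 or more. The rule kept 594 of the 22579 autosomal regions, or 2.63%, and these covered 1.48 Mb, or 7.91% of the listed autosomal bases. For comparison, 16919 narrower regions lay outside dense chains, and 182 broad regions lay inside them.

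The series holds 2 T-ALL and 2 double-positive (DP) H3K27me3 libraries among 18 in all, 10 of T-ALL and 8 of DP cells, and no source used here says how they were combined into the list. The T-ALL cells came from mouse tumours that overexpress Notch1-IC, and the DP cells were CD4+ CD8+ thymocytes of normal thymus. Each cell type also had 2 libraries each of H3K4me3, H3K9ac and micrococcal nuclease-treated input, and T-ALL had 1 Notch1 library and 1 sonicated input. The sources used here give neither mouse strain nor age, nor how Notch1-IC was expressed, nor whether replicates came from separate animals.

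Each region carried a position and a display colour, red (RGB 200,0,0) or green (0,200,0), and no source used here ties a colour to gain or loss in T-ALL. No value per library, fold change or p-value accompanied any region, so the sequencing depth is unknown and the 2 cell types could not be tested against each other. Shares below are given with exact 95% intervals (Clopper-Pearson). These account for counting error alone and treat neighbouring regions as separate although they share libraries and chromatin. Positions are on mm9, counted from 1. No gene or sequence on that build was at hand, so the regions are named by position, without genes.

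Broad regions outside dense chains were nearly all red. Of the 594, 545 were red (91.8%, 89.2 to 93.8) and 49 were green. Among narrower regions outside dense chains 59.2% were red, among broad regions inside dense chains 70.3%, and among all autosomal regions 57.2%. Colour and width come from the comparison that chose the regions, so these shares are a description. When neighbours of one colour within 1 kb were first joined, 2256 regions met the width minimum and 66.3% of them were red. The red share of 91.8% is that of regions listed as 1 unbroken interval.

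The red regions were also the wider ones. Red broad regions had a median width of 2325 bp (quartiles 2125 and 2750, widest 5800), and green ones a median of 2150 bp (quartiles 2050 and 2325, widest 3175). The widest green regions of the list therefore lay elsewhere: 9 of the 54 broad green regions inside dense chains were wider than 3175 bp, the widest being 4500 bp. By width band, the red share outside dense chains was 52.7% at 500 to 725 bp, 79.2% at 1500 to 1975 bp, 89.1% at 2000 to 2475 bp and 96.4% at 2500 to 2975 bp. Just inside the width minimum, at 2000 to 2075 bp, there were 93 red and 17 green regions. Just outside it, at 1900 to 1975 bp, there were 79 red and 14 green.

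**Figure D1:**
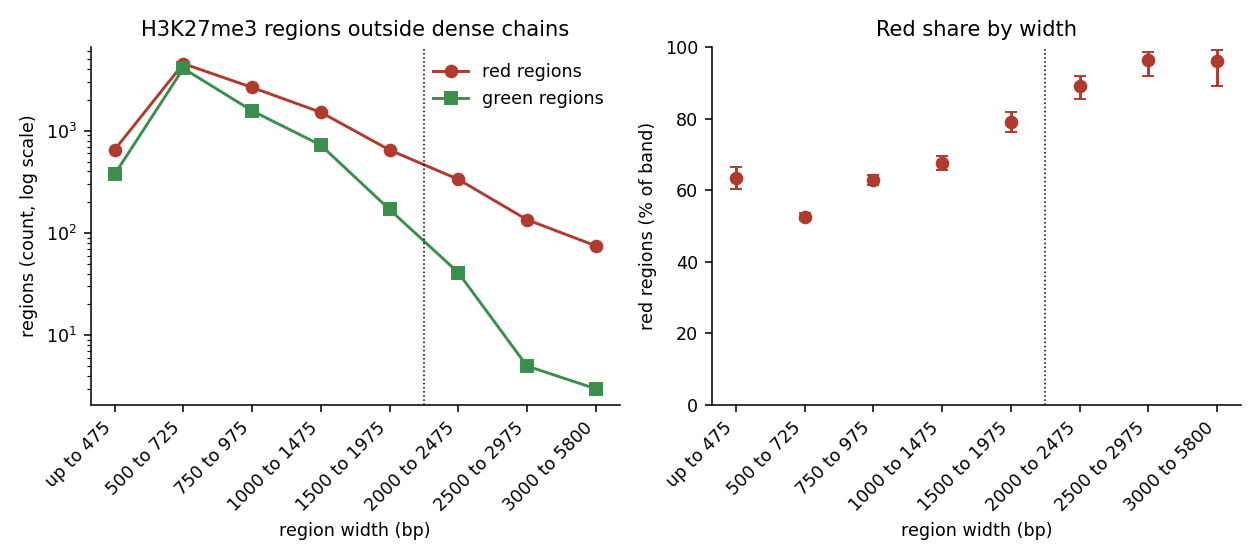
H3K27me3 regions outside dense chains by width band, with red and green regions counted on a log scale (left) and the red share of each band in percent (right, bars are exact 95% intervals). The dotted line marks 2000 bp, and to its right the red share lies between 89.1% and 96.4%.

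Most broad regions had other H3K27me3 regions close by. Of the red ones 96 stood alone in their chain, 274 lay in chains of 2 to 4 and 175 in chains of 5 to 9, while of the green ones 2 stood alone, 15 lay in chains of 2 to 4 and 32 in chains of 5 to 9. The 594 regions fell into 565 chains, and no chain held more than 3 of them. A chain neighbour was present for 82.4% of red broad regions, against 68.7% of narrower red ones outside dense chains. For green regions the shares were 95.9% and 86.9%. Chain size was used by the rule, so these counts are a description. The gap to the nearest listed H3K27me3 region had a median of 525 bp for red broad regions, against 1175 bp for narrower red ones, and of 375 bp for green broad regions, against 775 bp for narrower green ones. That nearest neighbour had the same colour for 357 of 545 red broad regions (65.5%) and for 28 of 49 green ones (57.1%). In narrower regions the same-colour shares were 66.9% for red and 52.6% for green.

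Notch1 peaks, which played no part in choosing the regions, lay in most of the red broad regions. Of 545, 310 shared bases with a peak (56.9%, 52.6 to 61.1), against 24.8% of all autosomal red H3K27me3 regions and 23.7% (22.9 to 24.5) of the narrower red regions outside dense chains. Broad red regions inside dense chains had a like share, 70 of 128 (54.7%, 45.7 to 63.5), and its interval overlapped that of the regions outside. A single peak was found in 250 of the red broad regions, 2 peaks in 52 and 3 peaks in 8. The series holds 1 Notch1 library, so these shares have no replicate behind them.

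Among the green broad regions 1 of 49 shared bases with a Notch1 peak (2.04%, 0.0517 to 10.9), against 1.12% of all autosomal green regions and 1.04% of narrower green ones. That region, chr12:12944201-12946500, shared its first 225 bp with the peak and its last 150 bp with a red H3K4me3 region, so that both sat across its edges. Of the 49 green broad regions, 0 held a peak in the central 500 bp (exact upper bound 7.25%), against 0.637% of narrower green ones. A peak that touched no green broad region lay within 2 kb of an edge for 9 of the 49 green broad regions (18.4%). For narrower green regions, counting peaks that touched no narrower green region, the share was 20.0%. These 2 kb shares left out different peaks for each class and cannot be compared directly. A peak lay in or within 10 kb of 21 of the 49 (42.9%), close to the 42.3% of narrower green regions. For red regions the share with a peak in or within 10 kb was 398 of 545 (73.0%) in broad ones, against 57.0% in narrower ones. These counts include the 310 broad and 2371 narrower red regions that held a peak. Among red regions without one, the nearest peak lay farther from broad regions (median 17025 bp) than from narrower ones (13575 bp).

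**Figure D2:**
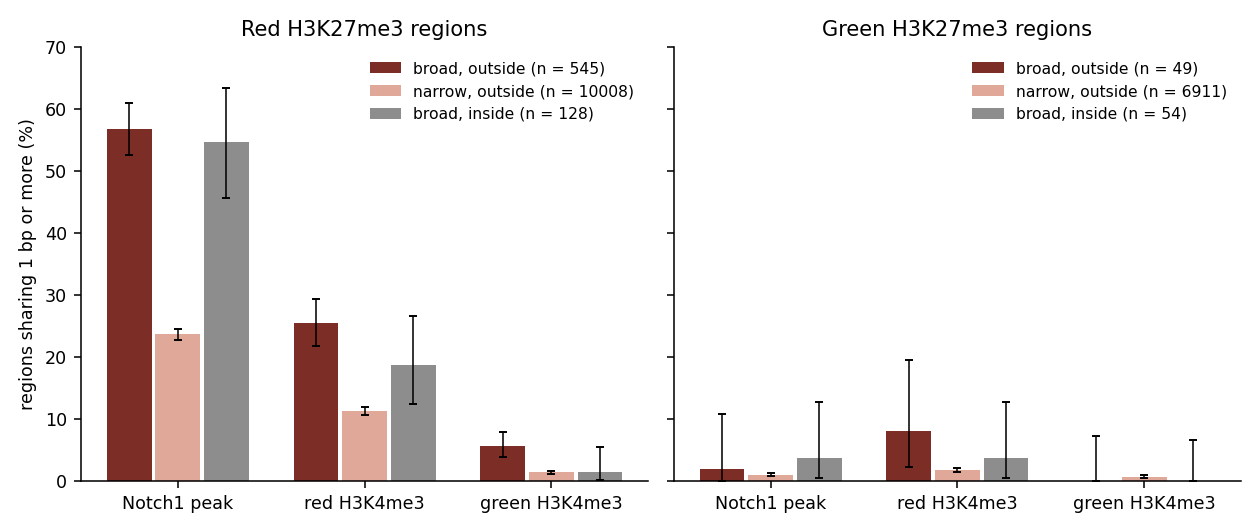
Share of H3K27me3 regions, in percent, that had 1 bp or more in common with a Notch1 peak, a red or a green H3K4me3 region, for red (left) and green (right) regions. Bars stand for broad regions outside dense chains, narrower regions outside them and broad regions inside them, with exact 95% intervals. Red broad regions met Notch1 in 56.9% of cases and green ones in 2.04%.

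Since a wide interval has more room for a peak, regions were also compared over a window of one length and per base. In the central 500 bp, 212 of 545 red broad regions held part of a Notch1 peak (38.9%, 34.8 to 43.1), against 22.9% (22.0 to 23.7) of narrower red regions. The broad share lay between those of the nearest narrower bands, 44.4% (40.5 to 48.3) at 1500 to 1975 bp and 36.6% (34.2 to 39.1) at 1000 to 1475 bp, and its interval overlapped both. Per base the classes were closer, in that Notch1 peaks covered 20.8% of the bases of red broad regions, 17.7% of those of narrower red regions and 17.6% of those of all autosomal red regions. Counted as overlaps, where a peak across an edge counts as 1, the order was the other way, with 275 per Mb in red broad regions, 300.2 per Mb in narrower red regions and 289.6 per Mb in all autosomal red regions. The whole-region share with a peak was 15.8% at 500 to 725 bp, 24.6% at 750 to 975 bp, 38.3% at 1000 to 1475 bp and 48.4% at 1500 to 1975 bp. Above the minimum width it was 57.3% for 2000 to 2475 bp, 56.3% for 2500 to 2975 bp and 56.0% for 3000 bp and over. In the central window the same bands gave 43.0%, 32.6% and 32.0%, with intervals that overlapped one another. The median width was 2325 bp for red broad regions with a peak and 2325 bp for those without.

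At the edge of the rule, of the 93 red regions of 2000 to 2075 bp, 53 held a Notch1 peak and 21 met red H3K4me3. Of the 79 red regions of 1900 to 1975 bp, 31 held a peak and 11 met red H3K4me3. The shares with a peak were 57.0% and 39.2%, beside 48.4% (44.5 to 52.3) for the whole band of 1500 to 1975 bp. Counts at the edge are small, and a step at 2000 bp was not tested.

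**Figure D3:**
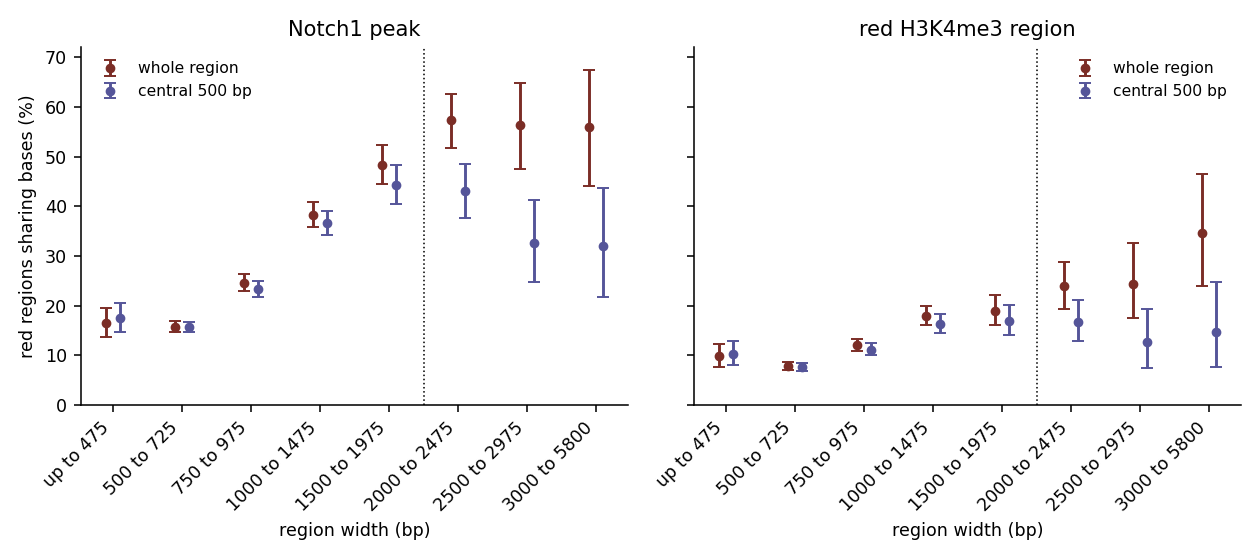
Share of red H3K27me3 regions outside dense chains, in percent, that had bases in common with a Notch1 peak (left) or a red H3K4me3 region (right), by width band, over the whole region and over its central 500 bp (bars are exact 95% intervals; in the narrowest band the window reaches past the region). Right of the dotted line at 2000 bp the whole-region Notch1 share stays between 56.0% and 57.3%, and the central share lies between 32.0% and 43.0%.

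The peaks lay inside the broad regions and not only at their borders. Of 378 overlaps of a red broad region with a Notch1 peak, 316 had the whole peak inside the region (83.6%), and 220 had the peak's midpoint in the inner 50% of its length (58.2%). The midpoint lay a median of 506 bp from the region's centre. These peaks had a median width of 738 bp, against 675 bp for all autosomal peaks. A position 300 bp before the centre was covered by a peak in 27.3% of red broad regions, and one 5000 bp before it in 2.57%, against 2.49% at that distance from narrower red regions. Outside the interval, 69 of 545 red broad regions had a peak within 2 kb of an edge that touched no red broad region (12.7%). For narrower red regions the share was 7.61%, counting peaks that touched no narrower red region. Different peaks were thus left out for each class, and these shares cannot be compared directly.

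**Figure D4:**
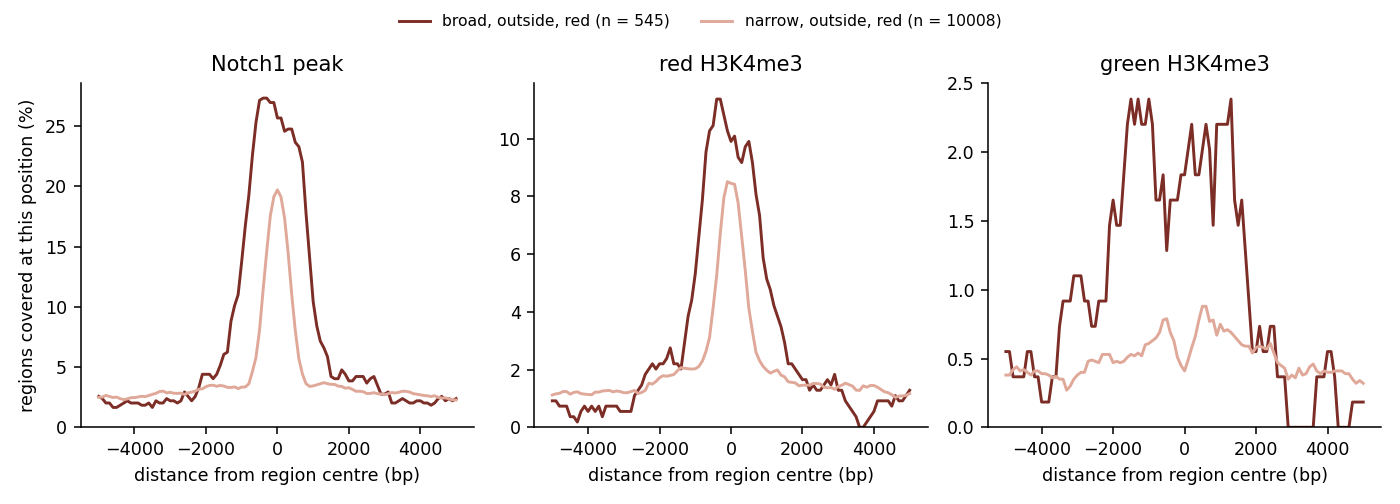
Share of red H3K27me3 regions outside dense chains, in percent, covered by a Notch1 peak, a red or a green H3K4me3 region at each distance from the region's centre in bp, for 545 broad and 10008 narrower regions (scales differ between panels). Notch1 reaches 27.3% and red H3K4me3 11.4% near the centre of broad regions, while green H3K4me3 nowhere passes 2.39%.

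The Notch1 share of red broad regions exceeded that of narrower red regions on each of the 19 autosomes. It ran from 42.9% on chromosome 12, with 21 red broad regions, to 81.8% on chromosome 16, with 11. For narrower red regions it ran from 21.4% to 28.2%. Broad regions made up between 1.48% of the listed regions on chromosome 19 and 4.20% on chromosome 18, and 2 autosomes, 10 and 13, had no green one. The counts per chromosome are small, and chromosomes are not replicate samples.

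**Figure D5:**
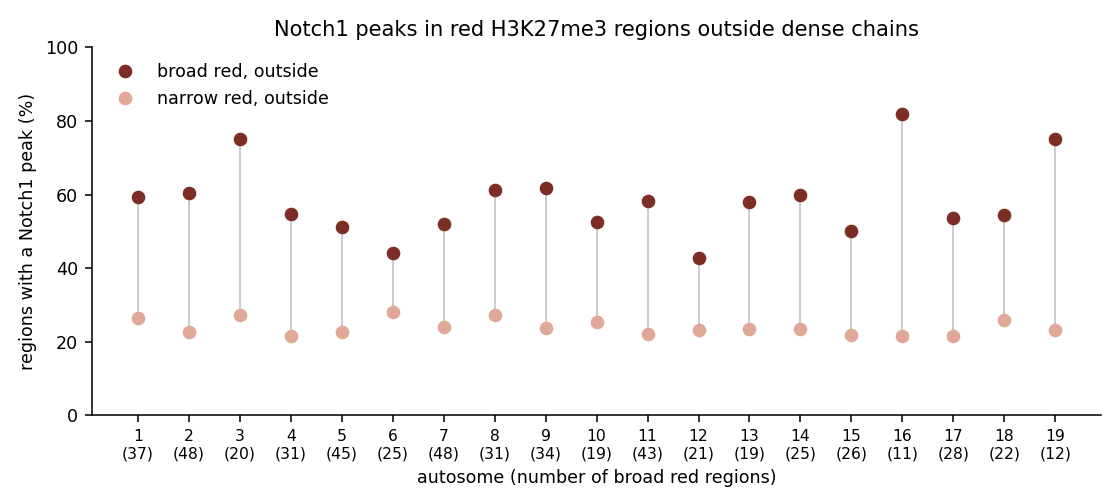
Share of red H3K27me3 regions outside dense chains with a Notch1 peak, in percent, on each autosome, for broad and for narrower regions (number of broad red regions in brackets). On all 19 autosomes the point for broad regions, between 42.9% and 81.8%, lies above that for narrower ones, between 21.4% and 28.2%.

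Red H3K4me3 regions, also left out of the rule, met 139 of the 545 red broad regions (25.5%, 21.9 to 29.4). The share was 11.4% over all autosomal red H3K27me3 regions, 11.3% for narrower red regions outside dense chains and 18.8% (12.4 to 26.6) for broad red regions inside them. It was 15.4% (12.5 to 18.7) in the central 500 bp, against 10.7% (10.1 to 11.3) in narrower red regions, and the nearest narrower bands gave 16.9% (14.1 to 20.1) at 1500 to 1975 bp and 16.4% (14.5 to 18.3) at 1000 to 1475 bp. Red H3K4me3 covered 8.51% of the bases of red broad regions, against 7.84% of narrower red ones and 7.44% of all autosomal red ones. The broad share was above the narrower one on 17 of 19 autosomes, chromosomes 4 and 12 being the exceptions. Of 161 overlaps, 126 had the whole H3K4me3 region inside the H3K27me3 region. Green broad regions met red H3K4me3 in 4 of 49 cases (8.16%, 2.27 to 19.6), and none of the 4 held it in the central 500 bp. The share was 1.66% over all autosomal green regions and 1.85% for narrower green ones. Counted as overlaps per Mb the contrast was smaller, with 36.2 in green broad regions and 26.5 in narrower green ones. The green share was 0.0% at minimum widths of 2500 and 3000 bp, where only 8 and 3 green regions remained. It was also 0.0% with 50% of the H3K4me3 region required inside.

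Green H3K4me3 was rarer in the red broad regions and lay nearer to their ends. It met 31 of 545 (5.69%, 3.90 to 7.98), against 1.46% of all autosomal red regions and 1.42% (1.20 to 1.67) of narrower red ones. In the central 500 bp the share was 2.39% (1.28 to 4.04), against 1.05% (0.859 to 1.27) in narrower red regions. Green H3K4me3 covered 1.99% of the bases of red broad regions, against 0.681% of narrower red ones. Overlaps per Mb were 28.4 and 19.0. Of 39 overlaps, 15 had the whole H3K4me3 region inside and 12 had its midpoint in the inner 50%, and midpoints lay a median of 975 bp from the centre, against 538 bp for red H3K4me3. Among green broad regions 0 of 49 met green H3K4me3, which allows a share of up to 6.12% when 3 counts are taken as the limit (exact upper bound 7.25%), and the share was 0.672% over all autosomal green regions.

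The marks combined unevenly within the red broad regions. The largest class, 220 regions, held a Notch1 peak and no H3K4me3 region. A further 83 held a peak with red H3K4me3 and 7 a peak with green H3K4me3, and 0 held a peak with both. Without a peak, 51 met red H3K4me3 alone, 19 green alone and 5 both. The remaining 160 met neither a peak nor H3K4me3 (29.4%), against 68.1% of narrower red and 67.2% of all autosomal red regions. Of these 160, 1 met H3K9ac, whose list does not cover all autosomes. A peak was thus present in 83 of the 139 with red H3K4me3 (59.7%), in 7 of the 31 with green H3K4me3 (22.6%) and in 220 of the 380 with none (57.9%). In 55 of the 83 regions with a peak and red H3K4me3, these had bases in common. Of the green broad regions, 45 of 49 met no Notch1 peak and no H3K4me3 region (91.8%), against 96.7% of narrower green and 96.8% of all autosomal green regions.

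The widest red regions show the range of these combinations. The widest, chr5:111845576-111851375 (5800 bp), held Notch1 peaks of 825 and 575 bp beginning 2075 and 4650 bp into it, and a red H3K4me3 region of 775 bp near its start. In chr8:73267151-73272250 (5100 bp) there were 3 Notch1 peaks and no H3K4me3, and in chr11:74978076-74983100 (5025 bp) there were 3 red H3K4me3 regions and no peak. Regions chr8:94879876-94884900 (5025 bp) and chr14:13175126-13180075 (4950 bp) each held 1 peak and 1 red H3K4me3 region. The peak and the H3K4me3 region lay at opposite ends of the chromosome 8 interval, and 475 bp apart in the chromosome 14 one. The region chr2:164820301-164824925 (4625 bp) held 2 peaks, the second sharing bases with its red H3K4me3 region. In chr5:58107726-58112100 (4375 bp) a Notch1 peak of 1550 bp enclosed a red H3K4me3 region of 500 bp. A lone Notch1 peak of 550 bp lay in chr5:33772676-33777850 (5175 bp). No Notch1 peak or H3K4me3 region touched chr15:79842001-79846750 (4750 bp), chr9:21791976-21796700 (4725 bp) or chr7:35437201-35441750 (4550 bp).

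Regions with 3 Notch1 peaks were not the widest as a rule. The 8 of them were 2150 to 5100 bp wide. None met H3K4me3, which was also so for 220 of all 310 red broad regions with a peak. At chr3:57378601-57380950 the peaks were 650, 650 and 500 bp wide and together filled 1800 of 2350 bp. At chr8:90483451-90486575 all 3 peaks lay inside the interval, with 75 bp between neighbours. At chr3:53458926-53461425 and chr3:115954401-115956725 the first peak crossed the left edge.

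The 10 widest green regions, 2350 to 3175 bp, had no base in common with any Notch1 peak or H3K4me3 region, nor the 8 on chromosomes of the H3K9ac list with an H3K9ac region. They were led by chr11:100870726-100873900 (3175 bp), followed by chr4:147499251-147502250 and chr11:11938326-11941325 (3000 bp each), chr17:24787876-24790825 (2950 bp) and chr3:9342976-9345900 (2925 bp). Their chains held 1 to 9 regions. Neither a peak nor H3K4me3 was met by 91.8% of green broad regions and 96.8% of all autosomal green regions. The lack of overlap therefore does not set the 10 widest apart.

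Where H3K4me3 of both colours met one broad region, the colours lay side by side. In all 5 such regions, which were red and held no Notch1 peak, there was 1 red and 1 green H3K4me3 region. At chr8:79422426-79426650 a red H3K4me3 region of 625 bp began 400 bp into the interval and a green one of 950 bp began at 2200 bp. In the other 4 (chr6:127982901-127986375, chr17:8993026-8996250, chr15:84684176-84687125 and chr11:98901301-98904200) the green region crossed an edge of the interval and the red one lay inside.

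H3K9ac was met by few broad regions, and all of it was green. On the 11 chromosomes that the H3K9ac list covers, 6 of 375 broad regions met it (1.60%, 0.589 to 3.45), against 0.182% of all H3K27me3 regions there and 0.172% (0.104 to 0.269) of narrower regions outside dense chains. All 6 were red regions meeting green H3K9ac, or 1.78% (0.656 to 3.83) of the 337 red broad regions there. Among red regions alone, green H3K9ac met 0.290% of all autosomal ones there and 0.267% of narrower ones outside dense chains. Counted as overlaps per Mb, the contrast was smaller, with 8.30 in red broad regions, 3.51 in all red regions and 3.51 in narrower red ones. Red H3K9ac met 0 of 337 red broad regions, which allows a share of up to 0.890% at 3 counts (exact upper bound 1.09%). It was rare over the whole list too, meeting 2 of all 8278 red regions there (0.0242%). Of the green broad regions 0 of 38 met H3K9ac, which allows up to 7.89% at 3 counts (exact upper bound 9.25%). Over all green regions there, 1 of 6574 met it (0.0152%), so neither 0 sets the broad regions apart. Green H3K4me3 also met 5 of the 6 red broad regions with green H3K9ac. At chr9:69606726-69609500 a green H3K9ac region of 2725 bp covered 2700 of the 2775 bp, with a Notch1 peak of 875 bp inside and green H3K4me3 across both edges. At chr11:45869076-45871100 (2025 bp) and chr9:96916751-96920025 (3275 bp) green H3K9ac and green H3K4me3 lay over overlapping parts of the interval. The other 2 with green H3K4me3 were chr7:80519601-80521750 and a region on chromosome 16, and chr17:35837376-35839950 touched green H3K9ac by 25 bp alone.

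The chromosome 16 region, chr16:30064901-30067650 (2750 bp), held more regions of the active marks than any other of the 6. It is the widest of 5 red H3K27me3 regions in the window chr16:30061173-30072152 on which the deposited files open. Inside it lay a Notch1 peak of 500 bp from 30066276 to 30066775, green H3K9ac regions of 725 and 800 bp, and green H3K4me3 regions of 1050 and 500 bp, and another of 700 bp ran over its right edge. The peak had bases in common with the second H3K9ac region and with both inner H3K4me3 regions. A red H3K4me3 region ended at 30064850, 50 bp left of the interval.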

How the data were processed

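Formaldehyde-fixed chromatin was cut with micrococcal nuclease (histone marks) or sonicated (Notch1) and read from one end for 36 bp, per the labels' protocols. The submitters' processing notes name BWA and the builds NCBIM37 and mm9. No source used here gives the region caller, its thresholds, the use of inputs or the combining of replicates. Per the file headers the authors deposited regions of T-ALL against DP for each histone mark, and Notch1 peaks. The deposited score is 1000 in every row and the other deposited values are starts and ends on a 25 bp grid, so depth is unknown. Regions were read with Python 3.11.15 and pandas 2.3.3. Overlap meant 1 bp or more, and intervals came from scipy 1.17.1. The overlap and chain code was checked on simulated intervals against bedtools 2.31.1. No statistical test was made. The regions and comparisons were chosen with earlier results of these data known. Regions named are the 10 widest of each colour, the 5 with most Notch1 peaks (ties by position), those meeting H3K9ac, the 5 widest meeting H3K4me3 of both colours, the 5 widest of each colour with Notch1 and H3K4me3, and those in the display window.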

Additional observations from a re-analysis of the deposited data

How the results depend on the processing

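No paired analysis was possible because regions carry no value for any single library, nor could a replicate be left out. Of 134 values over 11 alternative settings, 89 stayed within the interval of the reported value or within 1.5 times a reported count, 45 moved and 0 changed direction. Only the excesses of broad over narrower red regions could change sign, since the other values are counts and shares, which cannot be negative. The number of regions followed the rule: 1413 at a minimum width of 1500 bp, 218 at 2500 bp, 78 at 3000 bp, 387 when chains of 5 or more were left out and 2256 after joining one colour within 1 kb. In that order the red share was 84.5%, 96.3%, 96.2%, 95.6% and 66.3%. The share of red regions with a Notch1 peak was 52.3% at 1500 bp, 51.2% after joining, 38.9% in the central 500 bp and 38.9% with the narrower Notch1 peaks, those below the median peak width, removed. Its excess over narrower red regions, 33.2 percentage points as reported, was 25.9 after joining, 16.0 in the central 500 bp and 24.5 without the narrower peaks. The share of green regions with a peak was 0.0% at 2500 and 3000 bp, without chains of 5 or more, with 50% of the peak inside and in the central 500 bp. Only 8 green regions remained at 2500 bp, 3 at 3000 bp and 17 without chains of 5 or more. Red H3K4me3 met 34.7% of red regions at 3000 bp and 15.4% in the central 500 bp. Counting only the widest region of each chain was added after seeing the data and moved none of these.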

Other observations

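The X chromosome was left out by the rule. It held 3 regions of 2000 bp or more among its 103 H3K27me3 regions, all 3 red, the widest 2875 bp. Seen from the Notch1 list, 378 of 14541 autosomal peaks (2.60%) lay in a red broad region outside dense chains, as did 161 of 11075 red (1.45%) and 39 of 10052 green (0.388%) autosomal H3K4me3 regions. Red broad regions without a Notch1 peak were a median of 17025 bp from the nearest one, against 13575 bp for narrower red regions without one.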
